A study of Homo sapiens with 6 samples.

Results

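Genes with a LINC symbol (LINC followed by digits), the catalogue name of long intergenic noncoding RNAs, were followed in 2 human mammary cell lines after exposure to decitabine. Decitabine (DAC, the compound 5-aza-2'-deoxycytidine) is a cytidine analog that traps DNA methyltransferases, so that methylation is lost as cells divide. A LINC symbol was taken as a member when its FPKM, summed over its transcripts, reached 0.5 in at least 1 of the MDA-MB-231 libraries, or when it was listed in the HMLER table. The rule gave 55 members, of which 49 came from MDA-MB-231 and 21 from HMLER, with 15 in both and 6 in HMLER alone. They were chosen from 266 LINC symbols among the 23617 symbols of the MDA-MB-231 table. Levels therefore chose the members, and the counts given here describe them without a test.

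The study set DAC-treated against untreated cells in 4 groups. MDA-MB-231 is a human triple-negative breast cancer line with a mesenchymal-like character and was represented by 1 treated and 1 untreated library, while HMLER, a line of human mammary epithelial cells transformed in vitro with introduced oncogenes, had 2 libraries per condition. Treated cells of either line received 10 µM DAC daily and were harvested at 72 h, and control cells received no drug. Each library was prepared from pooled RNA extractions, so that the spread between cultures was not measured. In MDA-MB-231, 1 library per condition leaves every difference without a replicate check. For HMLER the authors' table gives 1 value per condition, merged over the 2 libraries, so that no spread is available there either. FPKM, fragments scaled by transcript length and by the number of mapped fragments, is a level per length and was compared between genes on that basis. Cuffdiff, which estimated the values, also gave a lower and an upper bound to each MDA-MB-231 value.

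The labels were set beside marker genes. All 3 mesenchymal-like markers were present in MDA-MB-231. VIM, the intermediate filament vimentin, stood at 3066 FPKM untreated (bounds 0 to 10419) and 1134 FPKM after DAC, CD44 at 212.3 and 138.7 FPKM, and the matrix protein gene FN1 at 39.8 and 111.3 FPKM. Of 3 receptors listed as low in triple-negative lines, ESR1 and PGR, the estrogen and progesterone receptors, were at 0 or under 0.1 FPKM. ERBB2, the other receptor of that list, was at 11.8 FPKM (bounds 4.81 to 19.3) untreated and 12.7 FPKM after DAC. Of 6 mammary epithelial markers, KRT8, KRT18 and EPCAM were above 5 FPKM in both MDA-MB-231 libraries, and the basal keratins KRT5 and KRT14 and the cadherin CDH1 were at 0 or under 0.2 FPKM. The HMLER table lists KRT5 (9.85 and 37.1 FPKM), KRT14 (11.6 and 52.2 FPKM) and EPCAM (0.450 and 2.17 FPKM) with higher values after DAC. It also lists the mesenchymal-like marker CD44, at 1.23 and 8.26 FPKM. Only transcripts that were higher after DAC are in that table, so the HMLER levels of the other markers are unknown. One characteristic of the control library of MDA-MB-231 carries a different line number, and its title was followed.

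Long noncoding RNAs are transcripts of at least 200 bases without a long reading frame. Many are capped, spliced and polyadenylated like messenger RNAs, most are present at low levels, and their expression differs strongly between cell types. Some act in the nucleus on chromatin or on neighbouring genes, others bind proteins or microRNAs in the cytoplasm, and a few turned out to encode small proteins. Promoters of such genes, like those of coding genes, can carry methylated CG dinucleotides in cells that do not use them, and DAC lowers this methylation.

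The members mix these kinds. According to RefSeq, 49 of the 55 are long noncoding RNAs, 1 (LINC00035) is a transcribed pseudogene and 5 are now protein-coding genes. Those 5 are LINC00085 (SPACA6), LINC00094 (BRD3OS), LINC00116 (MTLN, a small mitochondrial protein), LINC00341 (SYNE3, a nuclear envelope protein) and LINC00493 (SMIM26, a small mitochondrial protein). A current symbol other than the LINC symbol applies to 17 members, such as NORAD for LINC00657, CYTOR for LINC00152 and MANCR for LINC00704. A position on GRCh37, the assembly also called hg19 that the authors aligned to, was found in GENCODE for 54 of the 55. The libraries were made with a kit that does not mark the strand, so that reads of overlapping or antisense genes cannot be told apart, and 11 members share their locus in the table with another symbol.

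DNA at the starts of 6 members is shown because these members carry the contrasts described later. LINC00460, LINC00324 and LINC00665 were more than 2-fold higher after DAC in both lines, and LINC00704 was lower in MDA-MB-231 and higher in HMLER. LINC00472 was more than 2-fold higher in HMLER and not in MDA-MB-231, and LINC00657 was near its untreated level in MDA-MB-231. Each line gives 250 bases before to 50 bases after the annotated start, 5′ to 3′ on the gene's own strand, with every CG in capitals, from the RefSeq promoter table of GRCh38.p14. Each sequence had a single exact match in GRCh37, whose coordinates are given.
LINC00460, chr13:107028662-107028961, plus strand: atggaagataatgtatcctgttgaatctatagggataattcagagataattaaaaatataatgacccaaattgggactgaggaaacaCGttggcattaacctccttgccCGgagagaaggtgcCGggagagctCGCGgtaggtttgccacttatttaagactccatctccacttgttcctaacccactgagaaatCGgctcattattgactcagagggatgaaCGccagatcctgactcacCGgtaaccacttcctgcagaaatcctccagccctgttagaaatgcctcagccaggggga
LINC00324, chr17:8127312-8127611, minus strand: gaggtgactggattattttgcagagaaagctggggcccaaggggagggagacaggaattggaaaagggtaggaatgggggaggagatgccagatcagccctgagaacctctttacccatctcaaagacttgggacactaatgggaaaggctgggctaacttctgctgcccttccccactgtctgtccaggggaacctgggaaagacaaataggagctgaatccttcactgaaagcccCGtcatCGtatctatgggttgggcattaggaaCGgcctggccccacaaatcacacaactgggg
LINC00665, chr19:36822571-36822870, minus strand: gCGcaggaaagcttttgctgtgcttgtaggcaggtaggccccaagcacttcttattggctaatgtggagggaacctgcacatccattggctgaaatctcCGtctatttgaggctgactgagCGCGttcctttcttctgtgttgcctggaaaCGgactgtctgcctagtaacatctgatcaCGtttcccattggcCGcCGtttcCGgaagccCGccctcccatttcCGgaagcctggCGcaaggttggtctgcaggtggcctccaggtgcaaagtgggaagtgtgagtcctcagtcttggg
LINC00704, chr10:4720213-4720512, minus strand: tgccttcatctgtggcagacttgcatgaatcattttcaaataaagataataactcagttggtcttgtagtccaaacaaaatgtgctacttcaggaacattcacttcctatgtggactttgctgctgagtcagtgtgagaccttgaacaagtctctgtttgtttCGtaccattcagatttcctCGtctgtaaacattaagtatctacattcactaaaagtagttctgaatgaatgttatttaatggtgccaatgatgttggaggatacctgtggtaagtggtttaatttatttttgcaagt
LINC00472, chr6:72130399-72130698, minus strand: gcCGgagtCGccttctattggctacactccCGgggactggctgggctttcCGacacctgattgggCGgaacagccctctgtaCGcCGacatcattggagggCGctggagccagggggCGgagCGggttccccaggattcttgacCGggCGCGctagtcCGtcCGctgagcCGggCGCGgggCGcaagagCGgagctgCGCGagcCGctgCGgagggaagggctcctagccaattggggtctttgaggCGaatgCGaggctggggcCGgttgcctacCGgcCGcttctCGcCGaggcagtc
LINC00657, chr20:34638833-34639132, minus strand: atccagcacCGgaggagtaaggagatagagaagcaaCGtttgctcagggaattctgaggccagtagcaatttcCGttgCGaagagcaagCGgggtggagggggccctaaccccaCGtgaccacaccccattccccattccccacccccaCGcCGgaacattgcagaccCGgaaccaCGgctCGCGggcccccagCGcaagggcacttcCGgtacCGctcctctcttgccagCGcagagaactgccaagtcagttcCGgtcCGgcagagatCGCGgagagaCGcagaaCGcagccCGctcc
These windows hold 8 CG in LINC00460, 3 in LINC00324, 12 in LINC00665, 2 in LINC00704, 31 in LINC00472 and 23 in LINC00657.

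In MDA-MB-231, a small number of LINC genes supplied most of the LINC RNA. Summed over the members, FPKM came to 355.1 without and 388.3 with DAC, and LINC00152, LINC00657 and LINC00493 made up 57.6% and 61.4% of these sums. LINC00152 (CYTOR, chromosome 2, 87754300 to 87936259, plus strand), a cytoplasmic RNA linked to cell growth and migration, had 104.3 FPKM (bounds 44.3 to 169.5) untreated and 137.9 FPKM (bounds 62.1 to 220.9) after DAC. A near-identical copy of this gene lies elsewhere on chromosome 2, so its reads may be split between the copies. LINC00657 (NORAD, chromosome 20, 34633540 to 34638940, minus strand), which binds Pumilio proteins and is needed for stable chromosome number, had 49.5 FPKM (bounds 26.3 to 72.7) and 55.9 FPKM (bounds 29.6 to 82.3). LINC00493 had 50.6 and 44.5 FPKM.

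The next levels belonged to LINC00467, with 25.1 FPKM untreated and 24.0 after DAC, and LINC00339, with 14.7 and 21.2 FPKM. LINC00116, the source of the mitochondrial protein mitoregulin, had 11.5 and 7.52 FPKM, LINC00601 had 10.1 and 8.06 FPKM, LINC00472 had 7.16 and 8.002 FPKM, and LINC00857 had 4.67 and 5.36 FPKM. Together with LINC00704 these are the 10 members with the highest mean level, and 9 of the 10 kept a DAC/untreated ratio between 0.5 and 2. The exception, LINC00704, had a ratio of 0.385. For all 10 the bounds of the 2 libraries overlapped. Between genes, their order by level is separated only in steps: the bounds of LINC00152 and LINC00657 overlap, as do those of each following pair. At the other end, 30 of the 49 members had an untreated lower bound of 0.

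**Figure D1:**
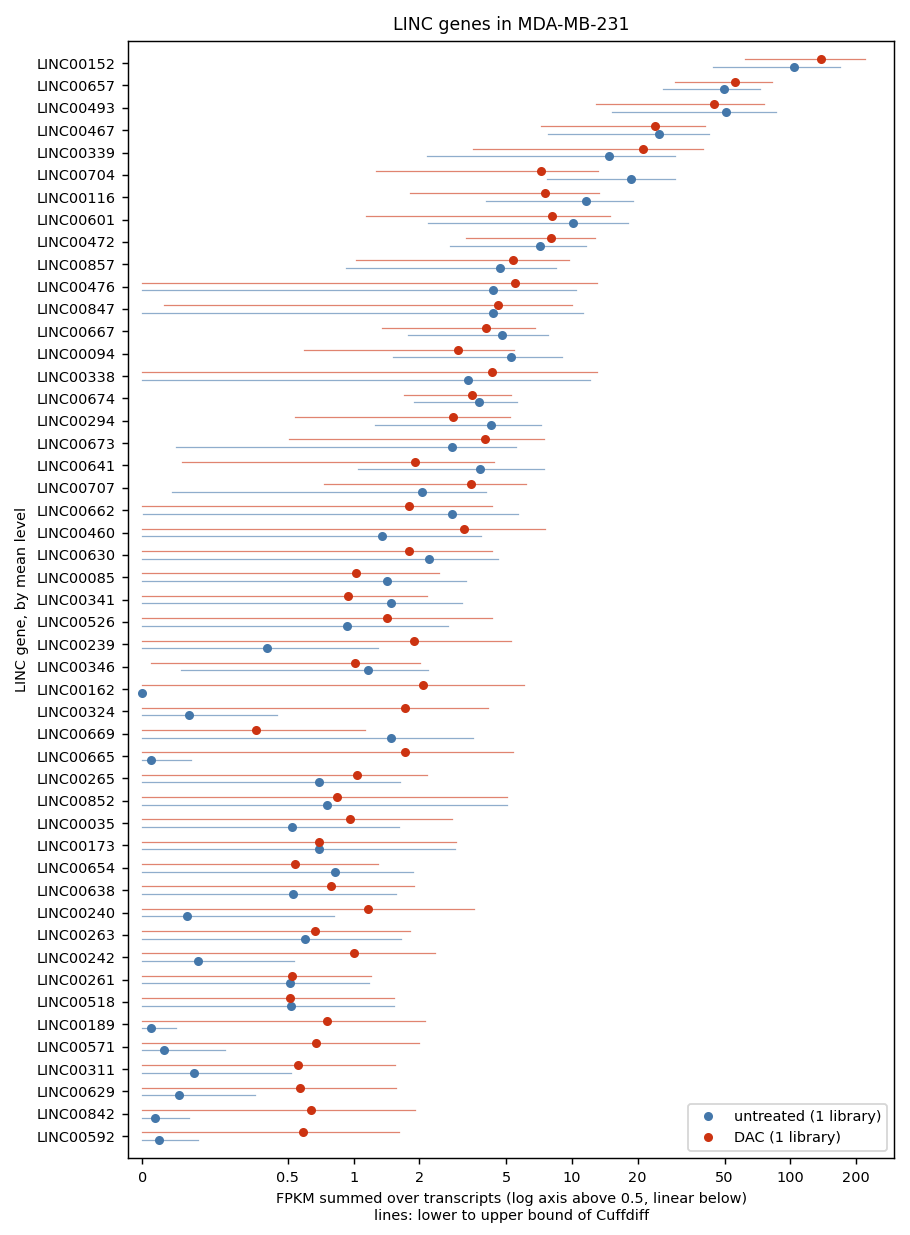
FPKM summed over transcripts of the 49 LINC members in MDA-MB-231, ordered by mean level, on an axis that is logarithmic above 0.5 and linear below. Points are single libraries, untreated in blue and DAC in red, and thin lines run from Cuffdiff's lower to its upper bound. The bounds of the 2 libraries overlap for every member, and the blue points far to the left of their red points sit among the members of low level.

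Across the 49 members in MDA-MB-231, 13 were more than 2-fold higher after DAC (26.5%), 2 were more than 2-fold lower (4.08%) and 34 lay between. Of all 13496 symbols at 0.5 FPKM or more in at least 1 library, 13.6% passed the 2-fold threshold with higher and 4.79% with lower values. Other noncoding symbols of 200 bases or more stood at 23.3% higher and 4.83% lower (n = 787), and protein-coding symbols at 12.5% and 4.07% (n = 12295). The median log2 change, computed on log2(FPKM + 1), which understates the change of low genes, was 0.16 over the LINC members, 0.10 over the other noncoding symbols and -0.07 over the protein-coding symbols. Over all symbols it was -0.06. The LINC members thus lay near the other noncoding genes in both the share that was higher and the median. Since the cultures were measured in bulk, more expressing cells and more RNA per cell cannot be told apart in any of these values.

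The share differed with the untreated level. Median untreated levels were 1.43 FPKM for the LINC members, 1.56 FPKM for the other noncoding symbols and 11.5 FPKM for the protein-coding symbols. All 12 members with an untreated level under 0.5 FPKM were more than 2-fold higher, but a member this low passed the rule only through its DAC value, and 91.2% of all symbols in this range were higher too. Of the 15 members at 0.5 to 2 FPKM untreated, 1 was higher (LINC00460) and 1 was lower (LINC00669), where 25.4% of all symbols in the range were higher. Of the 22 members at 2 FPKM or more, 0 were more than 2-fold higher and 1 was lower (LINC00704), where 2.80% of all symbols were higher. With the filter set on the mean of the 2 libraries, which favours neither direction, 7 of 43 members were higher (16.3%), with a median log2 change of 0.07. The same filter gave 18.5% of the other noncoding and 10.2% of the protein-coding symbols.

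Cuffdiff's bounds did not separate the libraries for any member. Bounds were apart for 0 of the 49 members in either direction, against 0.785% of all symbols with higher values after DAC (106 symbols) and 0.193% with lower values (26 symbols). For all 13 members that were higher, the untreated lower bound was 0. Library scale was examined as well. Symbols at 1 FPKM or more in both libraries had a median ratio of 0.912, or -0.13 as a log2 value. Dividing the DAC values by this ratio gave 14 members higher, 2 lower and a median of 0.22.

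**Figure D2:**
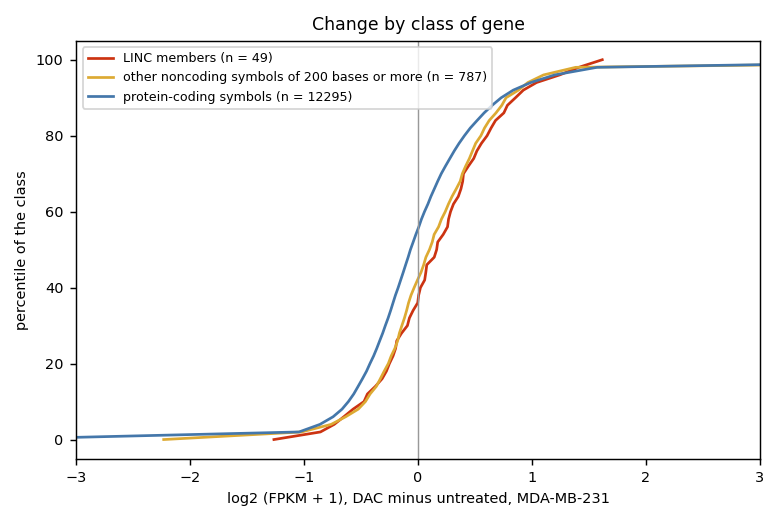
Cumulative percentiles of the log2(FPKM + 1) change, DAC minus untreated, in MDA-MB-231, for 49 LINC members (red), 787 other noncoding symbols (yellow) and 12295 protein-coding symbols (blue). The red and yellow curves run close together and cross 0 at a lower percentile than the blue curve with medians of 0.16, 0.10 and -0.07.

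Low FPKM values of single-transcript symbols fell on whole multiples of a fixed step, and this gave the reads behind them. For transcripts with an effective length of 1 kilobase, 1 read was worth 0.0235 FPKM without and 0.0236 FPKM with DAC. All 1342 low values of the first library and all 1713 of the second lay within 0.1 of a whole read (100%). Reads were computed for the 42 members with a single transcript. They were rounded for LINC00094, LINC00242, LINC00338 and LINC00657, whose values were not within 0.1 of a whole read. Exact binomial 95% intervals of the DAC/untreated ratio cover counting error only and not the spread between cultures. They lay above 1 for 20 of these members, below 1 for 13 and held 1 for 9. The intervals were not divided by the median ratio of 0.912 between the libraries. Some of those below 1 ended close to it, such as LINC00674 at 0.994 and LINC00493 at 0.989, so these counts depend on library scale. For 8 members the whole interval lay above 2. Each of these 8 was under 0.5 FPKM untreated and passed the rule only through its DAC value, which requires a large difference. Intervals were computed for members only, so no share over all symbols stands beside these counts.

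The 13 members with a ratio above 2 in MDA-MB-231 began from 0 to 41 reads among those with a single transcript. LINC00162 (PICSAR, chromosome 21, 46419122 to 46424642, minus strand), first described in cutaneous squamous carcinoma, was listed at 0 FPKM untreated and had 2.07 FPKM (bounds 0 to 5.9998) after DAC, from 0 and 46 reads. LINC00324 (chromosome 17, 8123942 to 8127361, minus strand) went from 0.161 to 1.72 FPKM, on 13 and 138 reads, a ratio of 10.7 with a counting interval of 6.05 to 20.6. Its start, printed earlier, holds 3 CG in 300 bases.

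LINC00842 had 0.0439 FPKM untreated and 0.636 after DAC, from 5 and 72 reads, a ratio of 14.5. It lies in a duplicated stretch of chromosome 10 and shares its locus with a pseudogene of HNRNPA1, so the reads may belong to more than 1 copy. LINC00189, which overlaps the transcription factor gene BACH1 on chromosome 21, had 0.0299 and 0.752 FPKM from 1 and 25 reads. Its ratio of 25.2 carries a counting interval of 4.12 to 1033, so the counts fix its size only loosely.

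LINC00665 (chromosome 19, 36750442 to 36822672, minus strand), an RNA within a cluster of zinc finger genes, had 0.0307 FPKM (bounds 0 to 0.166) untreated and 1.73 FPKM (bounds 0 to 5.35) after DAC. Nearly all of the DAC value came from transcript NR_038279, with 0.000578 and 1.66 FPKM, whereas NR_038278 had 0.0301 and 0.0611 FPKM. How Cuffdiff divided reads between the 2 transcripts is an estimate, and no read count was given for this gene.

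The remaining members above 2-fold were as follows. The GENCODE span of LINC00592, from 52557899 to 52617597 on chromosome 12, overlaps the keratin gene KRT80 on the opposite strand. The transcript measured here spans only 52604714 to 52617597, which lies outside KRT80. LINC00592 had 0.0553 and 0.584 FPKM (2 and 21 reads), and KRT80 itself had 13.0 and 17.4 FPKM. LINC00571 had 0.0740 and 0.670 FPKM (1 and 9 reads), and LINC00240, in the histone cluster region of chromosome 6, had 0.152 and 1.16 FPKM (5 and 38 reads). LINC00592, LINC00571 and LINC00240 shared low starting counts, and the lower ends of their counting intervals were 2.58, 1.26 and 3.01.

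LINC00242 had 0.191 and 1.0005 FPKM, with a ratio of 5.25, and shares its locus with LINC00574. LINC00629 on chromosome X had 0.125 and 0.565 FPKM (6 and 27 reads), and LINC00239 had 0.428 and 1.89 FPKM (8 and 35 reads). LINC00311, within the locus of the gene GSE1 on chromosome 16, had 0.178 and 0.553 FPKM (12 and 37 reads). Ratios in this group ran from 3.10 for LINC00311 to 5.25 for LINC00242.

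LINC00460 (chromosome 13, 107026825 to 107036663, plus strand), reported to promote growth and invasion in several carcinomas, had the highest untreated level of this group. It had 1.35 FPKM (bounds 0 to 3.82) untreated and 3.22 FPKM (bounds 0 to 7.49) after DAC, from 41 and 97 reads, a ratio of 2.38 with a counting interval of 1.64 to 3.52.

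Lower after DAC in MDA-MB-231 were LINC00704 and LINC00669. LINC00704 (MANCR, chromosome 10, 4623487 to 4720408, minus strand), an RNA tied to mitosis and known from aggressive breast cancer cells, had 18.7 FPKM (bounds 7.72 to 29.7) untreated and 7.20 FPKM (bounds 1.27 to 13.1) after DAC. It rested on 949 and 363 reads, with a ratio of 0.385 and a counting interval of 0.340 to 0.435, and it shares its locus with LINC00705. LINC00669 (MIR924HG, the host transcript of a microRNA on chromosome 18) had 1.49 and 0.389 FPKM, from 123 and 32 reads, a ratio of 0.262. LINC00641 fell just short of the threshold, with 3.80 FPKM untreated, 1.90 FPKM after DAC and a ratio of 0.5005. Its larger transcript alone, NR_038970, had 3.20 and 1.36 FPKM, a ratio of 0.424.

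Among the other members with the largest negative log2 changes were 4 now annotated as protein-coding. LINC00094 had 5.24 and 2.999 FPKM, LINC00116 had 11.5 and 7.52 FPKM, LINC00341 had 1.48 and 0.946 FPKM, and LINC00085 had 1.43 and 1.02 FPKM. LINC00662 had 2.82 and 1.79 FPKM, and LINC00294 had 4.24 and 2.86 FPKM. All of these ratios stayed above 0.5, between 0.573 for LINC00094 and 0.715 for LINC00085. The ratios of 14 further members (LINC00035, LINC00173, LINC00265, LINC00346, LINC00476, LINC00518, LINC00526, LINC00630, LINC00638, LINC00654, LINC00667, LINC00674, LINC00847 and LINC00852) ran from 0.657 to 1.85. Over all 49 members, 31 ratios were above 1 and 18 below 1.

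**Figure D3:**
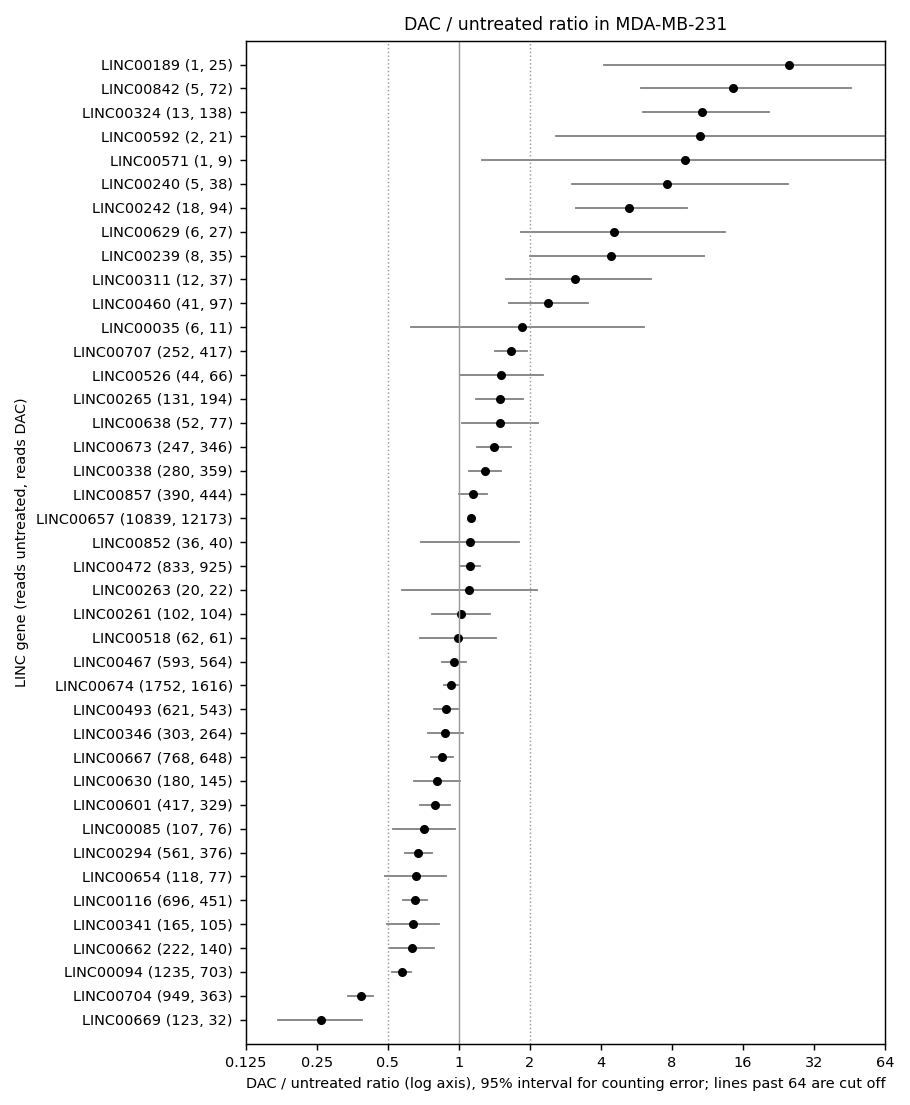
DAC/untreated FPKM ratios in MDA-MB-231, on a log axis, of the single-transcript LINC members with reads in both libraries, with the reads of each library in brackets. Bars are exact binomial 95% intervals for counting error in 1 library per condition. LINC00189, LINC00842 and LINC00324 stand at the top with few untreated reads and long bars, and LINC00704 and LINC00669 at the bottom lie wholly below 0.5.

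The HMLER table, which holds transcripts with a DAC/untreated ratio above 2 only (100% of its 1854 symbols), listed 21 LINC symbols. They were 1.13% of the symbols of that table. In MDA-MB-231, LINC symbols were 0.363% of those at 0.5 FPKM or more, 0.707% of those more than 2-fold higher and 1.13% of the whole table, which includes symbols at 0. HMLER ratios of the 21 ran from 2.15 to 36.0 with a median of 4.79, where the median of all symbols of the table was 3.62. Before treatment, 15 of the 21 were under 1 FPKM. After DAC all 21 were at 1.003 FPKM or more, and 3 exceeded 10 FPKM. The paper states that genes under a minimum read level were left out of its analyses, so a gene may be absent for its level. LINC genes that were lower or less than 2-fold higher in HMLER were not analysed here.

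LINC00707 (chromosome 10, 6821511 to 6884868, plus strand), reported in several carcinomas, reached the highest level of the 21 listed LINC symbols in HMLER, from 8.23 FPKM untreated to 75.3 FPKM after DAC, a ratio of 9.15. In MDA-MB-231 it had 2.06 FPKM (bounds 0.101 to 4.02) and 3.44 FPKM (bounds 0.729 to 6.14), on 252 and 417 reads, a ratio of 1.67 with a counting interval of 1.42 to 1.96. LINC00460 was the next highest of the 21, at 5.23 and 30.3 FPKM, a ratio of 5.79 beside 2.38 in MDA-MB-231. LINC00152 had 3.37 and 13.0 FPKM in HMLER for NR_024204, the only one of its 3 transcripts in that table. The same transcript had 4.45 and 7.54 FPKM in MDA-MB-231, where NR_024206 supplied 99.7 and 130.4 FPKM.

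The largest HMLER ratios, LINC00707 aside, belonged to members under 0.5 FPKM untreated. With no listed LINC value after DAC under 1.003 FPKM, a member this low had a ratio above 2 in any case. LINC00622 had 0.0455 FPKM untreated and 1.64 after DAC, a ratio of 36.0, LINC00842 had 0.148 and 2.94 FPKM, and LINC00601 had 0.220 and 2.35 FPKM. LINC00665 had 0.246 and 2.21 FPKM for NR_038279, the transcript that was also higher in MDA-MB-231, and LINC00339 had 0.484 and 4.05 FPKM for NR_023918. That transcript of LINC00339 had 3.07 and 6.42 FPKM in MDA-MB-231, a ratio of 2.09, while the sum over both transcripts had a ratio of 1.44. LINC00339 is thus under 2-fold or just above it depending on the transcript taken.

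Of the others, LINC00565 (SWINGN, an RNA that acts on the neighbouring gene GAS6) had 0.357 and 2.42 FPKM, LINC00319 had 0.171 and 1.16 FPKM, LINC00592 had 0.189 and 1.02 FPKM, and LINC00242 had 0.311 and 1.49 FPKM. LINC00472, described as a tumor suppressor RNA in breast cancer, had 0.357 and 1.70 FPKM. LINC00381 had 0.253 and 1.07 FPKM, and LINC00239 had 1.05 and 4.01 FPKM. LINC00704 had 1.74 and 6.45 FPKM, LINC00313 had 0.977 and 3.14 FPKM, and LINC00857 had 2.47 and 7.16 FPKM. The smallest ratios belonged to LINC00240, with 0.414 and 1.003 FPKM, LINC00652, with 0.446 and 1.06 FPKM for 1 of its 2 transcripts, and LINC00324, with 0.824 and 1.77 FPKM.

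The lines agreed in part. Of the 15 LINC members measured at 0.5 FPKM or more in MDA-MB-231 and listed in HMLER, 8 were more than 2-fold higher in MDA-MB-231 as well (53.3%), 6 lay between and 1 was lower. Among all 1490 HMLER-listed symbols at 0.5 FPKM or more in MDA-MB-231, 38.2% were more than 2-fold higher. The 8 shared genes, LINC00239, LINC00240, LINC00242, LINC00324, LINC00460, LINC00592, LINC00665 and LINC00842, make up 38.1% of the 21 HMLER members and 61.5% of the 13 that were higher in MDA-MB-231. Of these 8, 7 began under 0.5 FPKM in MDA-MB-231, where the membership rule itself requires a large difference, so their share is given as a description.

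The 6 that lay between in MDA-MB-231 were LINC00152, LINC00339, LINC00472, LINC00601, LINC00707 and LINC00857. LINC00472, LINC00601 and LINC00857, with 1 transcript each, had a higher untreated level in MDA-MB-231 than in HMLER, and LINC00707 a lower one. Values were 7.16 against 0.357 FPKM for LINC00472 and 10.1 against 0.220 FPKM for LINC00601. LINC00152 and LINC00339 have transcripts that the HMLER table does not list, so their HMLER totals are unknown. Their listed transcripts alone had 4.45 against 3.37 FPKM and 3.07 against 0.484 FPKM. The tables of the 2 lines were made separately, so these levels are set side by side without a test. Of the 6, LINC00601 was lower after DAC in MDA-MB-231, with a ratio of 0.794. LINC00704 differed in direction by more than 2-fold in each line, with 18.7 to 7.20 FPKM in MDA-MB-231 and 1.74 to 6.45 FPKM in HMLER.

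The 6 members known from HMLER alone stayed under 0.5 FPKM in MDA-MB-231. LINC00622 had 16 and 5 reads there, LINC00565 had 22 and 12, LINC00319 had 2 and 6, and LINC00313 had 1 and 2. LINC00652 was listed at 0 FPKM untreated and 0.0601 FPKM after DAC, and LINC00381 at 0 in both. The counting interval of the ratio was 0.0901 to 0.898 for LINC00622 and 0.248 to 1.16 for LINC00565, so that the second, like those of LINC00319 and LINC00313, holds 1. Of the 34 MDA-MB-231 members absent from the HMLER table, 5 were more than 2-fold higher in MDA-MB-231: LINC00162, LINC00189, LINC00311, LINC00571 and LINC00629.

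**Figure D4:**
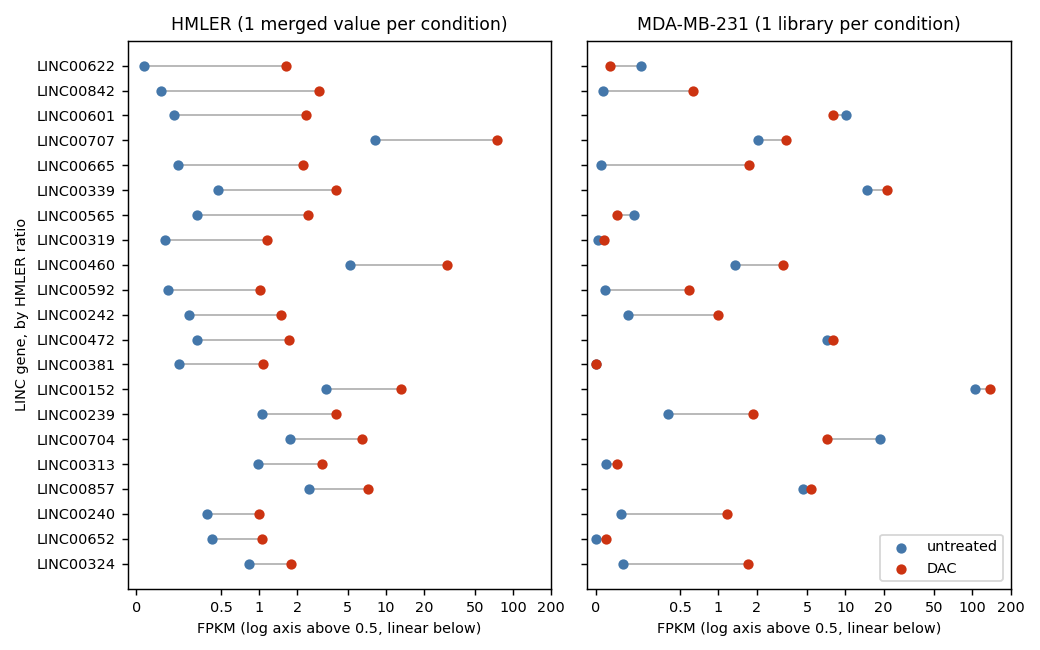
FPKM of the 21 LINC members of the HMLER table, untreated (blue) and after DAC (red), in HMLER (left, authors' merged value per condition over the listed transcripts, ordered by ratio) and in MDA-MB-231 (right, 1 library per condition, all transcripts of a symbol summed), with axes logarithmic above 0.5 and linear below. All 21 red points lie to the right of the blue in HMLER, where the table holds such transcripts only, while in MDA-MB-231 LINC00704, LINC00601, LINC00622 and LINC00565 have the red point on the left.

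The members were also grouped by role, with the shares over all symbols in MDA-MB-231, 13.6% higher and 4.79% lower, as the background. Of 11 LINC symbols listed for small proteins, 6 were in the table and 3 reached 0.5 FPKM (LINC00116, LINC00467 and LINC00493), with 0 higher, 0 lower and a median log2 change of -0.18. Of 5 hosts of small RNAs, 1 reached the level, LINC00338 (SNHG20), at 3.34 and 4.31 FPKM. Of 13 LINC RNAs characterised in cancer, 9 reached the level, and 1 was more than 2-fold higher (LINC00460) and 0 lower, with a median of 0.38 beside -0.06 for all symbols. This list holds LINC00673, at 2.82 and 3.98 FPKM, LINC00263 (OLMALINC), at 0.598 and 0.662 FPKM, and LINC00261, the partner of the endoderm factor gene FOXA2, at 0.508 and 0.522 FPKM. In HMLER, 5 of the 13 were listed: LINC00152, LINC00339, LINC00460, LINC00472 and LINC00707. All of these reached 0.5 FPKM in MDA-MB-231. Of all 13496 symbols at that level, the HMLER table lists 1490.

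For comparison, 30 well-known long noncoding RNAs outside the LINC series were examined. Of the 21 that reached 0.5 FPKM in MDA-MB-231, 1 was more than 2-fold higher (H19, the imprinted RNA, at 0.201 and 2.13 FPKM) and 3 were lower (DANCR, SNHG3 and SNHG7), against the same 13.6% and 4.79% over all symbols, with a median log2 change of -0.50. H19 reached 0.5 FPKM only through its DAC value, in an untreated range where 91.2% of all symbols were more than 2-fold higher. DANCR had 127.2 and 46.4 FPKM. Many of these RNAs are abundant hosts of small nucleolar RNAs. HMLER listed 6 of the 30, namely H19, MEG3, UCA1, KCNQ1OT1, SNHG12 and LINC-ROR. Its table holds 1854 symbols in all, beside 23617 in the MDA-MB-231 table.

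Starts of LINC genes differed in their CG content. The membership rule did not use this feature, but the groups compared here were formed from the levels that it used. A promoter sequence was found for 46 of the 55 members, 44 of these had a single exact match in GRCh37, and for 37 the match lay within 100 bases of the start in the deposited table. Over all 35114 promoters of the RefSeq table the median was 14 CG per 300 bases, and 46.9% were CG-rich, here an observed/expected ratio of at least 0.6 with at least 50% G + C. The 37 members had a median of 9 CG, and 35.1% were CG-rich. The 7 such members more than 2-fold higher in MDA-MB-231 had 0 to 12 CG, with a median of 5, and 0 of them were CG-rich. LINC00842, also more than 2-fold higher, is not among the 7 because its window had no single match in GRCh37, and that window was CG-rich, with 31 CG. LINC00242, whose annotated start lies 4048 bases from the deposited one, was left out as well, with 4 CG. The higher members LINC00162, LINC00239, LINC00240 and LINC00629 had no promoter sequence and so no CG count. Among the other 27 MDA-MB-231 members the count ran from 1 to 38 with a median of 14, and 13 were CG-rich (48.1%). All of the 7 except LINC00460 were under 0.5 FPKM untreated, and all of the 27 were at 0.5 FPKM or more. The groups thus differ in untreated level as well, and the part of level in this contrast was not tested.

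The ranges overlap, and low CG content was not limited to members that were higher. LINC00704 and LINC00669, the 2 members that were lower, had 2 and 3 CG. Of the 13 members listed in HMLER, which had a median of 7 CG, 1 was CG-rich, LINC00472, with 31 CG. LINC00842, with its 31 CG, is HMLER-listed too and stands outside the 13, as do LINC00242 with 4 CG, LINC00622 with 3 and LINC00652 with 3. HMLER-listed LINC00239, LINC00240, LINC00319 and LINC00707 had no promoter sequence. LINC00657, near its untreated level in MDA-MB-231, had 23 CG, and LINC00667 had the most of the 37 windows, 38. The letters TATAAA, searched on both strands, occurred in 3 of the 37 windows (LINC00261, LINC00571 and LINC00601), or 8.11%, against 11.5% of all promoters. DNA methylation at these starts was not analysed here, and no test was run on these small groups.

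**Figure D5:**
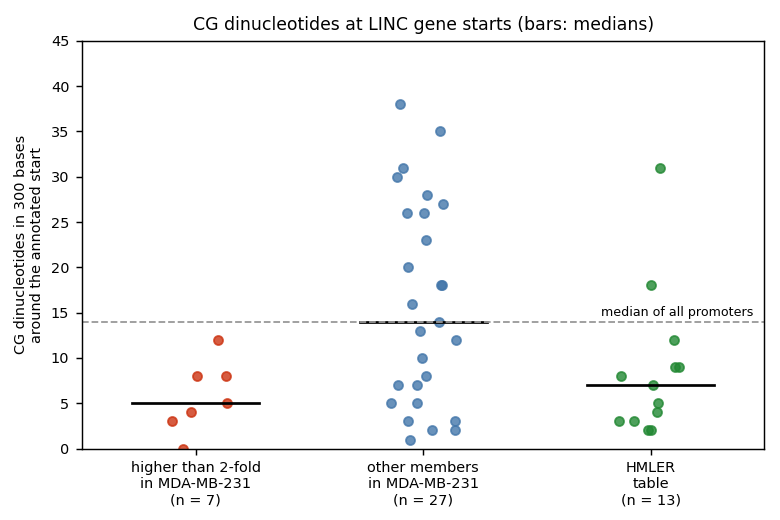
CG dinucleotides in the 300 bases around the annotated start (250 before, 50 after) of LINC members, each point a gene, with black bars at medians of 5, 14 and 7 and a dashed line at the median of all promoters, 14. The 7 plotted members more than 2-fold higher in MDA-MB-231 lie at 12 or below, LINC00842 with 31 CG is not plotted for want of a single match in GRCh37, and the other 27 spread from 1 to 38. HMLER-listed members (n = 13) overlap with both other groups.

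Despite the name intergenic, 15 of the 55 members overlapped a protein-coding gene in GENCODE, 15 more lay within 10 kb of one and 25 lay farther away. Overlaps and distances were taken from the GENCODE span where there was one, which can be much longer than the deposited transcript. The span of LINC00571, for example, ends at 38924396 and overlaps UFM1, while its deposited transcript ends at 38717369, outside UFM1. Among the 12 members more than 2-fold higher in MDA-MB-231 whose nearest protein-coding gene reached 0.5 FPKM, 3 had a neighbour that was also more than 2-fold higher. Among the other 26 members with such a neighbour, 2 did. Of all protein-coding symbols at this level, 12.5% were more than 2-fold higher. ZFP14 beside LINC00665 and AKR1E2 beside LINC00704 reached 0.5 FPKM only through their DAC values, which requires a large difference. LINC00240 lies 66148 bases from HIST1H2BJ, a histone H2B gene, which had 6.69 and 38.6 FPKM in MDA-MB-231 and 3.76 and 35.2 FPKM in HMLER. LINC00629 lies 5439 bases from PLAC1, a placental gene also seen in tumors, which had 1.02 and 2.59 FPKM in MDA-MB-231. LINC00665 lies 2683 bases from ZFP14, a zinc finger gene, at 0.177 and 0.609 FPKM.

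Neighbours of other members were set beside them. CTC1, a telomere maintenance gene 772 bases from LINC00324, had 11.3 and 11.6 FPKM in MDA-MB-231. EFNB2, the nearest coding gene to LINC00460 at 105430 bases, had 8.90 and 7.16 FPKM. AKR1E2, 108413 bases from LINC00704, had 0.205 and 0.955 FPKM, opposite in direction to LINC00704. In HMLER, 4 of the 21 listed members had their nearest coding gene in the table as well, namely HIST1H2BJ, KRT80 (4.26 and 12.7 FPKM), which overlaps LINC00592, C10orf90 beside LINC00601 and ZNF697 beside LINC00622.

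The threshold of 0.5 FPKM fell in a crowded part of the scale. Just inside it were LINC00518 with 0.517 and 0.512 FPKM, LINC00261 with 0.508 and 0.522 FPKM, and LINC00311 with 0.178 and 0.553 FPKM. Just outside were LINC00174 with 0.378 and 0.487 FPKM, LINC00115 with 0.443 and 0.467 FPKM, and LINC00235 with 0.394 and 0.463 FPKM.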

How the data were processed

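The 6 libraries (HMLER, 2 per condition; MDA-MB-231, 1 per condition) were made with the Illumina TruSeq RNA kit. The authors aligned reads to hg19 with TopHat2 and deposited FPKM values per RefSeq transcript from Cuffdiff on the Galaxy server; their versions are not given in the sources used here. The deposited MDA-MB-231 table has the FPKM of each library with Cuffdiff's bounds, and the HMLER table has 1 FPKM per condition for transcripts already selected as higher after DAC. Columns with the authors' fold changes, p-values and q-values were not used. No count test was run on FPKM.

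FPKM and bounds were summed over the transcripts of a symbol, which can only widen the bounds. Ratios carry no pseudocount and log2 changes add 1 FPKM. Reads were recovered from MDA-MB-231 by dividing FPKM by what 1 read is worth, with an effective length of the transcript length minus 204 bases; since Cuffdiff's library scaling is not given in the sources used here, this step is no measure of depth, and HMLER depth is unknown. Ratio intervals are exact (Clopper-Pearson) 95% binomial intervals for counting error only. Members and gene lists were chosen with earlier results of these data known. Genes named are every HMLER-listed member, the 10 with the highest mean FPKM, the 10 largest log2 changes in each direction, the members of the lists, those with bounds apart, and the 3 nearest to the threshold on each side. The neighbouring gene of LINC00629, the symbols sharing a locus, LINC00667 and the remaining members by name were added after their values were seen. Positions come from GENCODE lifted to GRCh37, names from RefSeq (50 members matched by accession, 5 by symbol or synonym). Steps were checked on simulated data. The software was scipy 1.17.1, pandas 2.3.3, numpy 2.4.6 and matplotlib 3.10.9 under Python 3.11.15. Alternatives were other filters, pseudocounts, library scaling, transcript choice, transcript status and non-overlapping bounds.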

Additional observations from a re-analysis of the deposited data

Results flagged for a closer look

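LINC00704 (MANCR) was singled out because, among HMLER-listed members at 0.5 FPKM or more in MDA-MB-231, it alone had a ratio below 0.5 there. Its log2(FPKM + 1) change was -1.26 in MDA-MB-231, from 18.7 to 7.20 FPKM, whereas its HMLER value went from 1.74 to 6.45 FPKM. Each line has 1 value per condition, so the difference was not tested. LINC00705, which shares its locus in the table, could take or give reads, and the part of this in the result was not tested. HMLER-listed LINC00601, LINC00622 and LINC00565 also had MDA-MB-231 ratios below 1, at 0.794, 0.314 and 0.549. LINC00622 and LINC00565 stayed under 0.5 FPKM in MDA-MB-231.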

How the results depend on the processing

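The 13 of 49 LINC members more than 2-fold higher in MDA-MB-231 became 7 of 35 at 1 FPKM or more. They became 7 of 43 with the mean of the libraries at 0.5 FPKM or more. Without a filter the count was 76 of 145, and with bounds that do not overlap it was 0 of 49. Over all symbols, 13.6% were higher with the main filter and 11.2% with the mean filter. Shares over all symbols were not set beside the other alternatives. The count of LINC members was 13 of 49 with a pseudocount of 0.1 and 10 of 49 with a pseudocount of 0.5. It was 14 of 52 after division by the median ratio, 13 of 48 with the largest transcript of each symbol and 13 of 49 with transcripts of status OK alone. The 2 lower members became 12 of 145 without a filter, 3 of 48 with the largest transcript of each symbol and 0 of 49 with bounds apart. The median log2 change of 0.16 was 0.14 at 1 FPKM, 0.043 without a filter, 0.068 with the mean filter, 0.18 and 0.17 with pseudocounts of 0.1 and 0.5, 0.22 after division by the median ratio and 0.20 with the largest transcript. The 21 HMLER symbols became 6 at 1 FPKM or more in both conditions, 5 at 5 FPKM or more in either and 13 with a pseudocount of 1 in the ratio. The filters change which genes are counted; other causes of these changes were not tested. Of 195 recomputed changes of the 39 named members, 181 moved by at most 0.5 times the wider range between bounds on the log2 scale, 14 moved more, all with a pseudocount of 0.1, and 0 were reversed; LINC00467, with a log2 change of -0.06, had 0.07 after division by the median ratio. No paired analysis was possible because MDA-MB-231 has 1 library per condition and the HMLER values were merged over libraries, which also leaves no replicate to omit. Counting error alone leaves the direction open for 9 of the 42 single-transcript members, whose counting intervals hold 1. For the others the direction has no replicate check either, since the spread between cultures was not measured.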
